A study of Mus musculus with 6 samples.

Results

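The Wnt, beta-catenin and cadherin genes of a wound healing PCR array were examined here. They are Wnt5a, which encodes a secreted Wnt ligand, Ctnnb1, which encodes beta-catenin, Wisp1, named for its induction by Wnt, and Cdh1, which encodes E-cadherin. They were chosen by gene symbol, and the symbols were joined to the measured values by well, which gave 4 of the 84 wound healing genes on the array. The study asked how dermatan sulfate (DS), a sulfated polysaccharide of the ascidian Styela plicata, changes gene expression in fibroblasts after a scratch wound. The cells were primary dermal fibroblasts of neonatal C57BL/6 mice, scratched as a monolayer. The 3 control cultures received plain DMEM, the 3 DS cultures received 2,4-DS at 50 µg/mL, and mitomycin C was present in both groups to stop proliferation. Each culture was run on its own SYBR Green array of 96 wells. The incubation time is not settled. The source names of the DS samples give 24 h, and the protocol in the labels of all samples gives 72 h. The study's methods give 48 h, and its results place the regulated genes on the day after wounding. The labels list a series of DS concentrations without tying one to each sample, so the dose given here is that of the methods. The labels call the samples biological triplicates and do not say whether the cultures came from different animals.

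A Wnt ligand binds Frizzled receptors on the cell surface. In the canonical branch of the pathway, beta-catenin escapes degradation, enters the nucleus and acts with TCF factors on target genes such as Wisp1, whereas Wnt5a is best known for a branch that acts without beta-catenin, on cell polarity and movement. Beta-catenin also sits at cell junctions, where it ties cadherins to the actin cytoskeleton, and E-cadherin is the cadherin of epithelia such as the epidermis rather than of dermal fibroblasts.

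The measured value was the CT, the cycle at which fluorescence crosses a threshold, so that more template gives an earlier CT, by 1 cycle for each 2-fold at full efficiency. A gene was counted as detected at a CT of 36 or less, the cutoff of the study's methods. The arrays of the groups differed before any of the 4 genes was considered. Of the gene assays, 26, 25 and 25 were detected in control replicates 1, 2 and 3, against 60, 60 and 58 in DS replicates 1, 2 and 3. Among genes that nearly every cell uses, Actb gave no CT in the 3 control arrays and a CT of 13.05, 11.55 and 12.01 in the DS arrays. B2m likewise gave no CT in control and a CT of 22.04, 21.91 and 19.89 in DS, and Gapdh gave none in any of the 6 arrays. A missing CT is therefore reported below as a missing CT, not as absence of the transcript. Folds against such a group are computed against the cutoff, and they are lower bounds only if a missing CT stands for a level below it, which the missing Actb, B2m and Gapdh leave in doubt. The assignment of gene symbols to wells was used as deposited and was not tested, and the value of every gene named here rests on it.

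The markers of the labelled cell type differed in the same way. Of 7 fibroblast markers, 0 were detected in any control array and 5 in the DS arrays, while Col5a1 gave a CT over the cutoff in DS and Acta2 gave none in any array. Relative to the normalizing genes, their summed level was 75784, 321463 and 208789 in DS replicates 1, 2 and 3, with Tagln the most abundant. Col5a2, another collagen gene that is not on the list and was added after its values were seen, was detected in all 3 control arrays, so the missing CTs do not extend to every collagen. How far this difference between the arrays enters the values of Wnt5a, Ctnnb1 and Cdh1 was not tested.

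Wnt5a was detected in control and not in DS. Its CT was 31.62 in control replicate 1, 29.02 in replicate 2 and 31.00 in replicate 3, with a mean of 30.5 ± 1.36 (SD, n = 3), and the 3 DS arrays recorded none. Within control, replicate 2 stood 1.98 cycles before the next array, about 3.94 times as much template, while the other 2 arrays lay 0.620 cycles apart. The Wnt5a SD was the second largest of the 24 assays measured in all 3 control arrays, after Vegfa at 1.77 cycles and before Egf at 1.25 cycles, against a median of 0.491 cycles. Control replicate 2 had the earliest CT of its group for 12 of those 24 assays, replicate 1 for 7 and replicate 3 for 5.

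**Figure D1:**
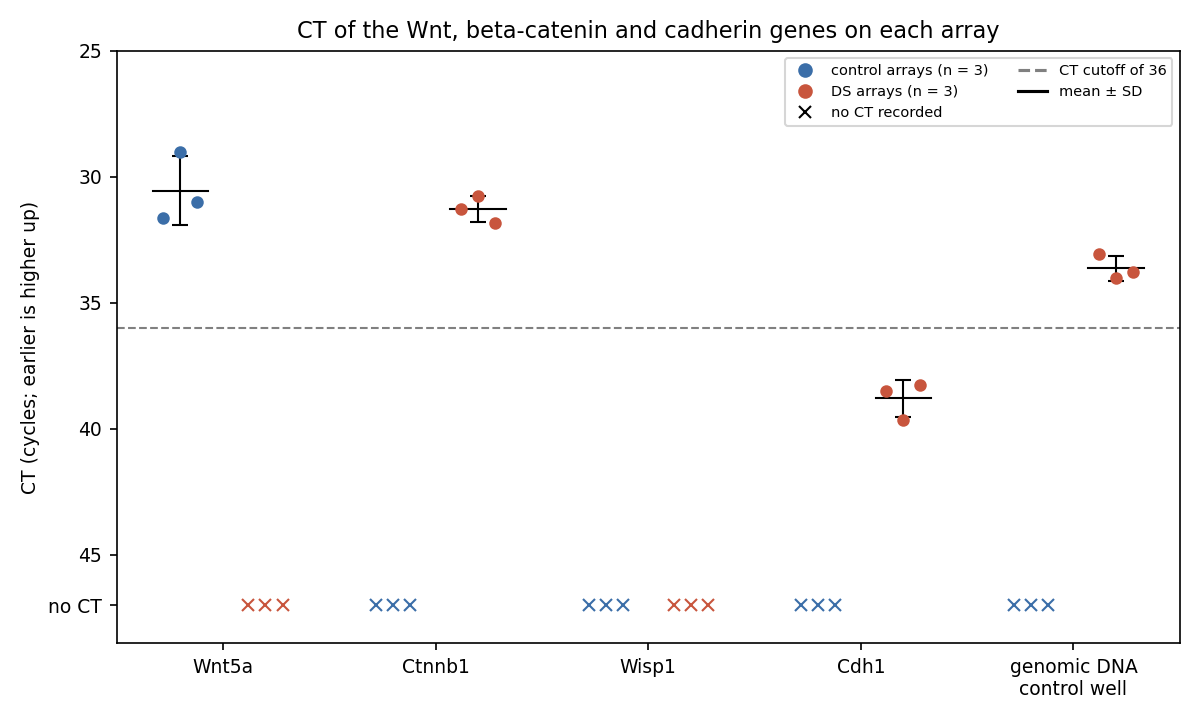
CT in cycles (vertical axis, earlier values higher) of the 4 genes and of the genomic DNA control well on each of the 3 control arrays (blue) and 3 DS arrays (red), with mean and SD where every array of a group gave a CT, crosses where none was recorded, and the cutoff of 36 as a dashed line. Wnt5a has points in control alone, Ctnnb1 in DS alone and Wisp1 in neither, and the 3 Cdh1 points lie beyond the cutoff, later than the genomic DNA control of the same arrays.

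After subtraction of the mean CT of Ccl7, Egfr and Hsp90ab1, the normalizing genes of the study's methods, and reversal of the sign, which gives −ΔCT on a log2 scale, Wnt5a stood at −1.25, 1.33 and −0.82 in control replicates 1, 2 and 3. The normalizing CT itself lay between 30.2 and 30.4 in the 6 arrays, so the spread of Wnt5a within control was that of its own CT. These normalizing genes were picked by the study's software on these same arrays, so their narrow range is no independent check of them. The study describes the choice as replacing housekeeping genes whose expression the treatment altered. On these arrays Actb and B2m had a CT in DS alone and Gapdh had none. Gusb had a single CT, of 41.1 in DS replicate 3, and Hsp90ab1 was measured in all 6 arrays. With a missing CT set to the cutoff, the difference between DS and control was −5.46 (standard error 0.63, adjusted p = 3.48e-05, limma over 64 tested genes), a fall of at least 44.1-fold if the missing CT stands for a level below the cutoff. The DS values here are the cutoff and not measurements, so that arm has no measured spread, the error comes mostly from the control arrays, and the p sets 3 measured arrays against a substituted value. It cannot by itself support a lower level of Wnt5a in DS. Without control replicate 2 the difference was −4.68 (limma, adjusted p = 2.25e-05), and over the alternatives run for Wnt5a the adjusted p ranged from 2.61e-20 to 0.184. The low end came from a limma fit with a replicate block. That fit gave Wnt5a and Ctnnb1 the same standard error of 0.491, so this p does not reflect the spread of Wnt5a itself. In bulk cultures, fewer cells that express Wnt5a and less Wnt5a RNA per cell cannot be told apart.

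On the linear scale, 1 culture held most of the Wnt5a signal in control. There, the ratio to the normalizing genes (2 to the power −ΔCT) was 0.421 in control replicate 1, 2.51 in replicate 2 and 0.565 in replicate 3. Their arithmetic mean was 1.17, whereas the authors' deposited control mean was 0.802, close to an average taken on the CT scale. The methods' own test on the linear ratio did not pass for Wnt5a (p = 0.164, and 0.184 after Benjamini-Hochberg adjustment), and the exact two-sided permutation test on CT gave p = 0.1, the smallest value that 3 arrays against 3 allow.

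By a rule based on likeness alone, the tested gene closest to Wnt5a over the 6 samples was Egf, an epidermal growth factor. After each gene was centred on its own mean, their −ΔCT differed by 0.146 cycles on average, followed by Hgf at 0.653 and the integrin gene Itga5 at 1.21. The CT of Egf was 26.54, 24.11 and 25.82 in control replicates 1, 2 and 3, and 31.43, 30.99 and 31.00 in DS replicates 1, 2 and 3. Egf thus had the same early control replicate 2 as Wnt5a, but it was measured in both groups, so its difference of −5.66 on the log2 scale is not a bound (limma, standard error 0.59, adjusted p = 1.86e-05). Since the DS values of Wnt5a are the cutoff, its likeness to genes measured in DS rests on the choice of 36, and at a cutoff of 40 its difference was −9.46. Hgf, in contrast to Egf, was detected in control only, with CTs of 30.65, 31.07 and 30.46, and replicate 2 was its latest array.

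Ctnnb1 showed the opposite pattern, detected in DS and not in control. No CT was recorded in the 3 control arrays, and the CT was 31.26, 30.77 and 31.82 in DS replicates 1, 2 and 3, with a mean of 31.3 ± 0.525 (SD, n = 3). The 3 DS arrays lay within 1.05 cycles of each other. Replicate 2 was the earliest, as it was for 26 of the 58 assays measured in all 3 DS arrays. The −ΔCT was −0.98, −0.48 and −1.52 in DS replicates 1, 2 and 3. The difference was 4.71 on the log2 scale (limma, standard error 0.35, adjusted p = 1.65e-06), an increase of at least 26.1-fold under the same condition, with a measured CT in 3 of 3 DS arrays and the cutoff in place of a CT in each control array. As for Wnt5a and every other gene here without a CT in a whole group, the p sets measured arrays against a substituted value and cannot by itself support a higher level in DS. What was measured is that Ctnnb1 gave a CT on the DS arrays alone. The methods' own test on the linear ratio gave p = 0.00923 (0.0295 after Benjamini-Hochberg adjustment), and the exact two-sided permutation p was 0.1. The permutation p was again the smallest possible. Both tests used the cutoff in place of a CT in each control array, so neither can by itself support a higher level in DS.

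At the cutoff of 36, the Ctnnb1 difference lay in the middle of the array. It ranked 32 in order of increase among the 64 tested genes, 46 of which have a value set against the cutoff, and lay 0.31 above their median difference of 4.40 on the log2 scale. The distance from the median moved with the cutoff and with the set of genes tested, to −0.15 at a cutoff of 35, 2.64 at a cutoff of 40 and 3.50 with a missing CT set to 45, both over 73 genes, and 2.69 with all 84 genes in the fit, where the Ctnnb1 difference is the same and the median alone moves. It also moved with the DS arrays, to 0.08 without replicate 1, 0.05 without replicate 2 and 0.49 without replicate 3. Its nearest genes by the likeness rule were Csf3, at a mean difference of 0.426 cycles, Cd40lg at 0.453 and Fgf10 at 0.506. Csf3 and Cd40lg were detected in DS only, like Ctnnb1, whereas Fgf10 was measured in all 6 arrays. Ctnnb1, Csf3 and Cd40lg all have the cutoff in place of a CT in control, so that part of their likeness is set by the cutoff and not measured. At the cutoff of 36, Wnt5a lay on the other side of the distribution, at −9.86 relative to the median, and ranked 9 in order of decrease.

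**Figure D2:**
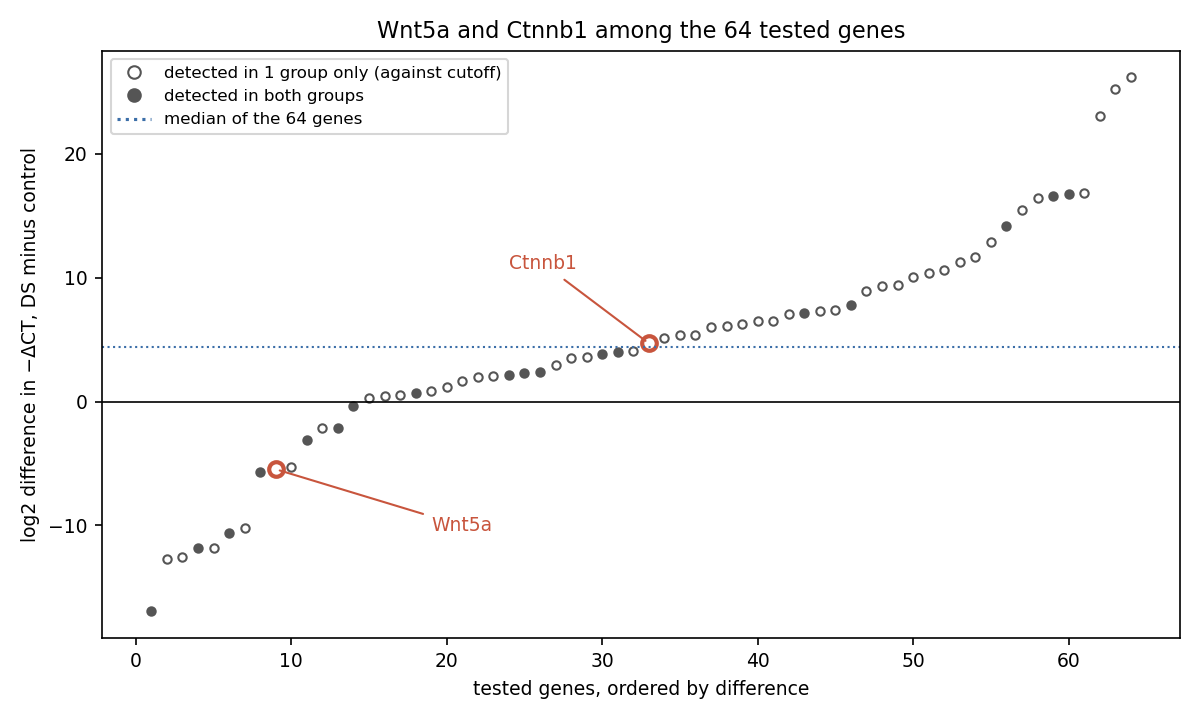
Log2 difference in −ΔCT between DS and control (vertical axis) for the 64 tested genes in order of size (horizontal axis), with open circles for genes detected in 1 group only, whose value is set against the cutoff, and filled circles for genes detected in both. Ctnnb1 at 4.71 lies next to the dotted median of 4.40 and Wnt5a at −5.46 lies among the decreases.

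The DS arrays also gave a signal in the well that tests for genomic DNA, at a CT of 33.08, 34.02 and 33.78, where the control arrays gave none. Ctnnb1 came before that well in every DS array, its CT being −1.82, −3.25 and −1.96 cycles relative to it in replicates 1, 2 and 3. The study's methods include a DNAse step for all samples, and the study reports no genomic DNA in a separate quality run of the RNA. The 2 wells hold different assays, and the share of the Ctnnb1 signal that genomic DNA could give was not tested.

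The Ctnnb1 difference changed sign under normalizers that were largely unmeasured in control. In the control arrays Hsp90ab1 was the only one of the 5 housekeeping genes with a CT, so that the others entered at the cutoff of 36, and Actb and Gapdh both did so in every control array. With the 5 housekeeping genes of the array as normalizers it was −2.92, and with Actb and Gapdh alone −7.18, both past the limma threshold in the opposite direction. The adjusted p ranged from 1.46e-16 to 0.0295 over the Ctnnb1 alternatives, the lowest again from the limma fit with a replicate block and its shared standard error. These normalizers moved the whole array, with a median difference of the tested genes of −3.23 and −7.49 on the log2 scale in place of 4.40. Higher genes then made up 30.4% and 16.1% of the called genes, in place of 78.0%. Relative to the median of the same fit, Ctnnb1 was at 0.31 under each of the normalizers tried, since another normalizer shifts all genes alike. Wnt5a was lower in DS with every normalizer tried, from −17.35 with Actb and Gapdh to −2.51 with the median CT of the assays measured in all 6 arrays, and a higher CT cutoff enlarged the size of both differences because it lowers the level given to a missing CT.

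**Figure D3:**
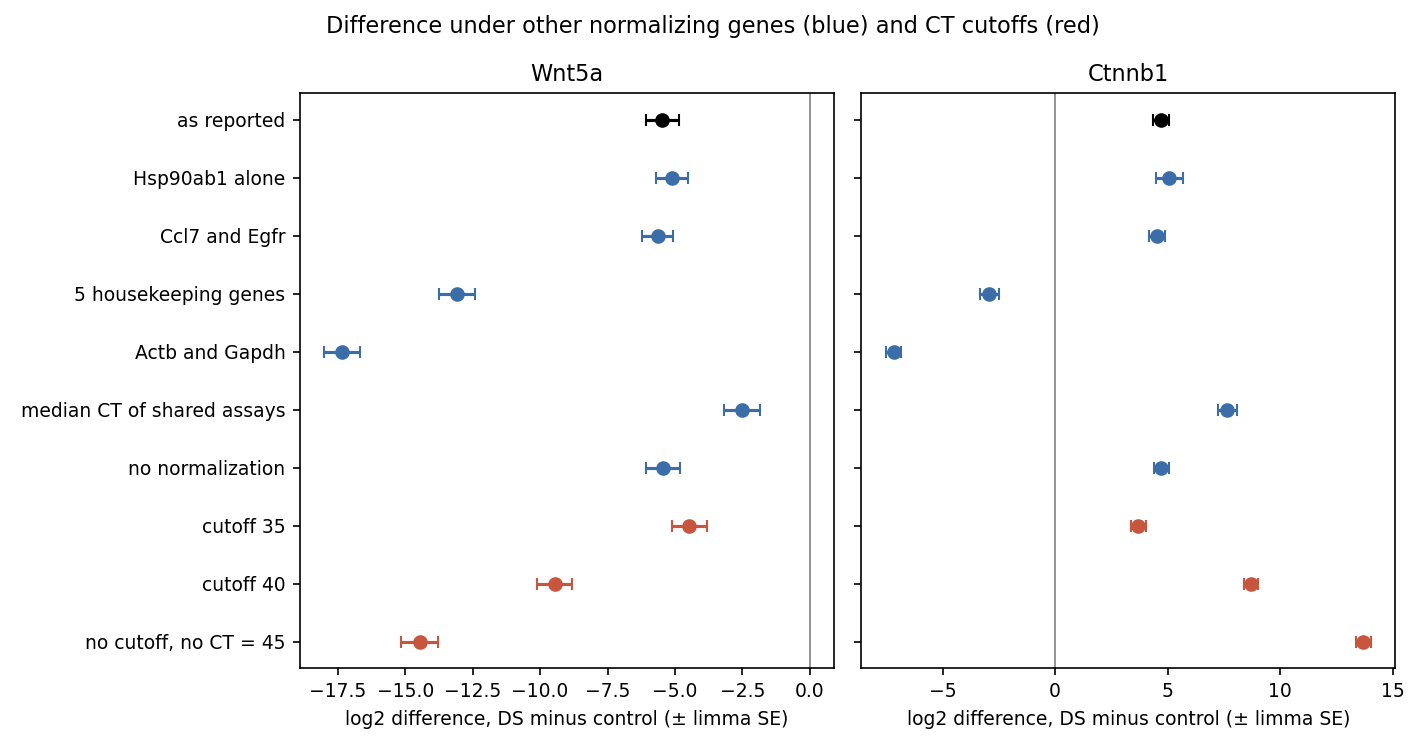
Log2 difference between DS and control (horizontal axis, with limma standard error) of Wnt5a and Ctnnb1 as reported (black), with other normalizing genes (blue) and with other CT cutoffs (red). Wnt5a stays below 0 in every line shown, and Ctnnb1 falls below 0 for the 5 housekeeping genes (−2.92) and for the pair Actb and Gapdh (−7.18), normalizers whose missing CT in control was set to the cutoff.

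Wisp1, a secreted matricellular protein of the CCN family and a target of beta-catenin, had no CT on any array of either group. It was 1 of 11 wound healing genes without any CT, and it has neither a level nor a difference. The other CCN gene of the array, Ctgf, gave no CT in control and a CT of 29.69, 28.69 and 30.14 in DS replicates 1, 2 and 3. All 3 DS arrays were well before the cutoff. Set against the cutoff in control, the Ctgf difference was 6.48 on the log2 scale (limma, standard error 0.41, adjusted p = 5.30e-07). It is a lower bound only if a missing CT stands for a level below the cutoff. The difference turned to −1.14 under normalization by the 5 housekeeping genes and to −5.41 under Actb and Gapdh. In the methods' own test on the linear ratio, Ctgf did not pass after Benjamini-Hochberg adjustment.

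Cdh1 gave no CT in control and a late CT in DS, at 38.49, 39.63 and 38.25 in replicates 1, 2 and 3 (mean 38.8 ± 0.737, SD, n = 3). Every one of these lies over the cutoff, so Cdh1 was not tested, 1 of 9 genes with a CT beyond the cutoff and none within it. Cdh1 was later than the genomic DNA well of the same array by 5.41, 5.61 and 4.47 cycles. The call moved with the cutoff. A cutoff of 40 gave a difference of 1.20 on the log2 scale (adjusted p = 0.0223, limma over 73 genes). A missing CT set to the last cycle run, 45, gave 6.20 (adjusted p = 6.95e-06, limma). Other normalizing genes were not tried at these cutoffs. With every gene kept at the cutoff of 36 the difference was −0.01 (adjusted p = 0.930, limma), because all 6 arrays were then at the cutoff.

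The other epithelial marker of the array behaved unlike Cdh1. Itgb6, an integrin subunit largely restricted to epithelia, had a CT of 10.04, 9.61 and 9.77 in DS replicates 1, 2 and 3 and none in control. It was the only one of the 2 epithelial markers at or under the cutoff, so the summed level of the list was its own, a −ΔCT of 20.24, 20.68 and 20.53 in the DS arrays. Of the 6 leukocyte markers, 4 were tested, of which 3 were higher in DS and Il4 was lower, and Il2 and Il10 gave no CT. Their summed ratio was 2.09, 1.26 and 2.40 in control replicates 1, 2 and 3 and 151, 628 and 180 in DS, with Ifng the most abundant in both groups. The heart muscle marker Actc1 was over the cutoff in DS and without a CT in control. Of the 3 hepatocyte markers, Fga and Plg were higher in DS and Vtn was lower, and the summed ratio was 49.6, 85.6 and 72.3 in control, all of it Vtn, and 0.467, 0.287 and 0.715 in DS. Among all tested genes 71.9% were higher and 20.3% lower by limma, so these counts do not set the markers apart from the array. The part of the markers in the values of Ctnnb1, Wnt5a and Cdh1 was not tested.

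Counted together, with a missing CT taken as the cutoff, 1 of the 4 genes was called higher in DS (Ctnnb1), 1 was called lower (Wnt5a) and 2 were not tested (Wisp1 and Cdh1). Both calls rest on an arm without a measured CT. Over the array, 71.9% of the 64 tested genes were higher and 20.3% were lower by limma. In detection, Ctnnb1 was 1 of 39 genes found in DS arrays only, 46.4% of the 84 wound healing genes, and Wnt5a was 1 of 7 found in control arrays only, 8.33%. The median difference of the 2 tested genes was −0.38 on the log2 scale, against 4.40 over all 64, and a median of 2 genes with opposite signs describes neither. With so few genes, these counts do not set the group apart from the rest of the array.

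Genes described elsewhere as targets of beta-catenin and TCF made up 6 of the genes on the array. Of these, 5 were tested, of which 3 were higher in DS, 1 was lower and 1 was not called, beside 71.9% higher and 20.3% lower among all tested genes. Those shares are close to the counts of the list, which therefore do not set it apart. Its median was 7.41 on the log2 scale, against 4.40 for all tested genes. Under normalization by the 5 housekeeping genes 1 target was higher and 2 were lower, where 17 of the 64 tested genes were higher and 39 lower. Under Actb and Gapdh 1 target was higher and 4 were lower, where 10 of the tested genes were higher and 52 lower.

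Ptgs2, which encodes the inducible cyclooxygenase, was the target measured in all 6 arrays that rose. Its CT was 25.12, 23.71 and 24.00 in control and 10.39, 9.32 and 10.49 in DS, a difference of 14.20 on the log2 scale (limma, standard error 0.48, adjusted p = 9.93e-09). The 3 DS arrays were well separated from the 3 control arrays, and Ptgs2 was the only target higher in DS in all 23 alternatives run for it. The size of the difference moved with the normalizer. It was 2.31 with Actb and Gapdh, 6.58 with the 5 housekeeping genes and 17.15 with the median CT of the assays measured in all 6 arrays.

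Vegfa, an angiogenic growth factor, moved the other way. Its CT was 19.72, 18.00 and 21.53 in control and 32.56, 31.31 and 30.78 in DS, a difference of −11.81 (limma, standard error 0.89, adjusted p = 1.95e-06). The groups did not overlap, although Vegfa had the widest spread of the control assays and replicate 2 was again its earliest control array. As for Wnt5a, the methods' own test on the linear ratio did not pass for Vegfa. The difference was −10.91 without control replicate 2 and −12.76 without control replicate 3. With other normalizers it ran from −23.70 (Actb and Gapdh) to −8.86 (median CT of the assays measured in all 6 arrays).

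The 3 remaining targets are extracellular proteolysis genes without a CT in control. Their differences are set against the cutoff. For Mmp9 and Plaur they are lower bounds only if a missing CT stands for a level below it. The CT of Mmp9, a gelatinase, was 27.58, 28.16 and 30.01 in DS replicates 1, 2 and 3, a log2 difference of 7.41 (limma, standard error 0.58, adjusted p = 2.64e-06). That difference was 8.115 without DS replicate 3 and 6.91 without DS replicate 1. The CT of Plaur, the urokinase receptor, was 27.28, 25.98 and 28.02, a difference of 8.90 (limma, standard error 0.50, adjusted p = 2.46e-07). Both were detected in all 3 DS arrays, and both lost their call in the methods' own test on the linear ratio and turned negative with Actb and Gapdh as normalizers, and with the 5 housekeeping genes neither was past the limma threshold. The CT of Mmp7, matrilysin, was 35.62, 34.88 and 36.02, with 2 of the 3 arrays at or under the cutoff and a mean 1.88 cycles later than the genomic DNA well, and its difference of 0.49 was not called (adjusted p = 0.215, limma). Mmp7 was called higher in 3 alternatives, at 3.44 with the median CT of the assays measured in all 6 arrays as normalizer, 4.48 at a cutoff of 40 and 9.48 with a missing CT set to 45, and lower in 2, at −7.13 under the 5 housekeeping genes and −11.40 under Actb and Gapdh.

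**Figure D4:**
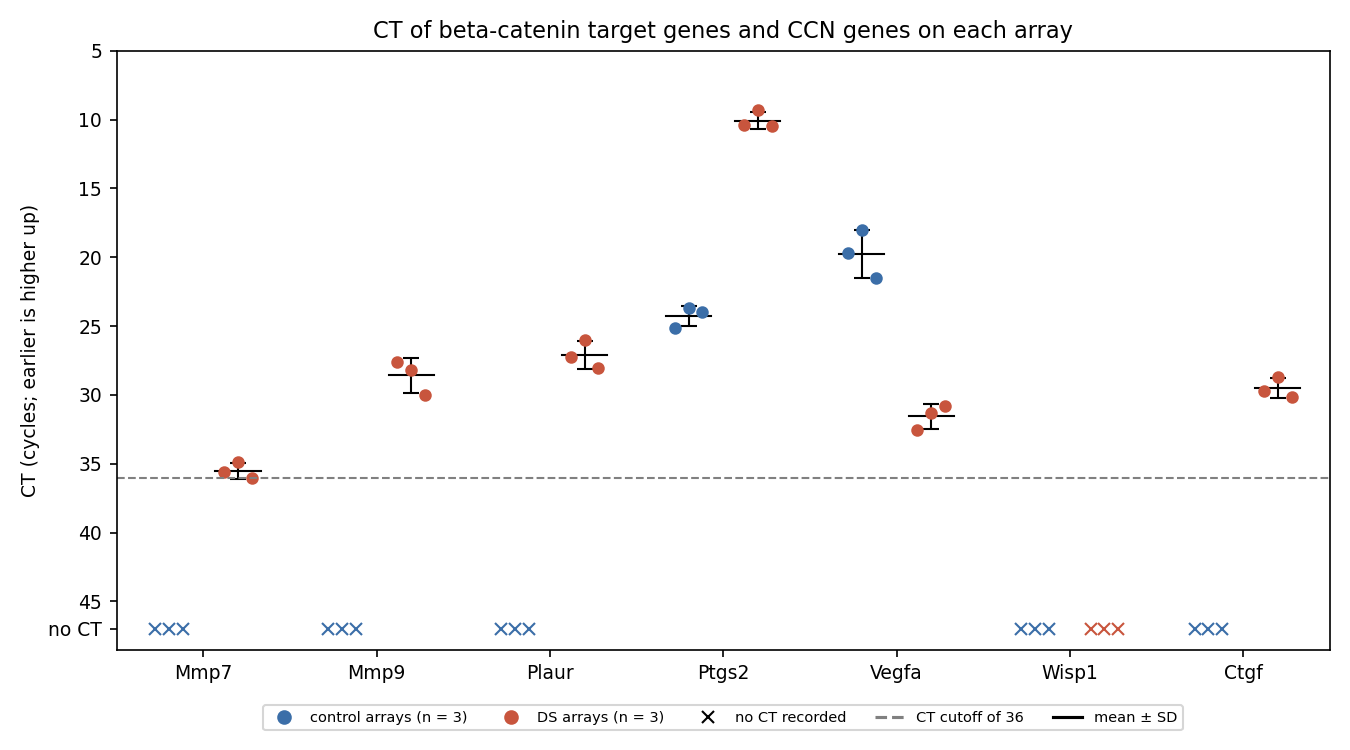
CT in cycles (vertical axis, earlier values higher) of the beta-catenin target genes and Ctgf on each of the 3 control arrays (blue) and 3 DS arrays (red), with mean and SD, crosses where no CT was recorded and the cutoff of 36 as a dashed line. Only Ptgs2 and Vegfa have points in both groups, in opposite order, and Wisp1 has none.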

How the data were processed

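Total RNA of 3 control and 3 DS cultures was measured by SYBR Green real-time PCR, with 1 array of 96 wells per culture. The authors deposited CT values for all wells, neither normalized nor filtered, and for each group the average ratio to the normalizing genes (2 to the power −ΔCT), which has no spread between replicates. Gene symbols were joined to CT by well. A CT that was missing or over 36 was replaced by 36. The arithmetic mean of the Ccl7, Egfr and Hsp90ab1 CT was then subtracted and the sign reversed. The test covered the 64 of 84 genes that reached 36 or less on at least 1 array and used limma 3.58.1 (lmFit, eBayes, two-sided, Benjamini-Hochberg, called at 0.05 or less) in R 4.3.3. The fit was first run on simulated data without substituted values, which does not cover genes without a CT in a whole group. The value of a gene undetected in a whole group is set against the cutoff, and is a bound only if a missing CT stands for a level below it and every array of the other group was detected. Tables, exact permutation tests and plots used Python 3.11.15 with numpy 2.4.6, scipy 1.17.1, pandas 2.3.3 and matplotlib 3.10.9.

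The genes named are the 4 genes, the lists of targets and markers, Ctgf, the normalizing and housekeeping genes, and for each tested gene of the 4 the 3 tested genes with the smallest mean absolute difference in centred −ΔCT. The genes and lists were chosen with earlier results of these data known. Alternatives were other normalizing genes, cutoffs, filters and tests, a replicate block and each array left out. A PCR array has no sequencing depth, and the number of arrays limits the precision. No well had the same CT on any 2 arrays. Results for some genes are not reported here but are counted in the totals. p-values measure the spread between these cultures only. For the 46 of 64 tested genes set against the cutoff, 1 group has no measured spread.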

Additional observations from a re-analysis of the deposited data

Results flagged for a closer look

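Among the control wells, which enter no gene comparison, 3 gave a CT in every DS array and none, or a later one, in the control arrays. The genomic DNA control had a mean CT of 33.6 in the DS arrays and none in control. A reverse transcription control well had a mean CT of 29.6 in the DS arrays and none in control. Another had a mean CT of 32.1 in the DS arrays and, in control, a single CT of 38.03 in replicate 1. The remaining well of that kind was earlier in control, at 22.74, 21.68 and 23.00, and gave 39.69 and 41.00 in DS replicates 1 and 3 and none in replicate 2. The wells of the reverse transcription control therefore lay up to 15.3 cycles apart within 1 array, and the 3 positive PCR control wells gave no CT on any array. The bearing of these wells on the 4 genes was not tested.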

How the results depend on the processing

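Wnt5a kept its direction in its 22 alternatives, from −17.35 to −2.51, and lost its call in 2, the methods' own test on the linear ratio with and without adjustment, where the difference of −5.46 is the same and the test works on another scale. Ctnnb1 kept its direction in 20 of 22, 1 of which, the authors' group means, has no test, and its call in the rest of these, and reversed under normalization by the 5 housekeeping genes (−2.92) and by Actb and Gapdh (−7.18). Under both, Actb in control stands at the cutoff itself, so no value is a bound. Under the 5 housekeeping genes, calls numbered 17 higher and 39 lower, 0 of the 4 genes and 1 target were higher and 2 targets lower, and Mmp7 (−7.13) and Ctgf (−1.14) reversed, while Mmp9 (−0.22, limma adjusted p = 0.767, the highest of a range from 8.03e-30) and Plaur (1.27, limma adjusted p = 0.0594, in a range from 4.74e-38 to 0.0955) were not past the threshold. With Actb and Gapdh, 10 genes were higher and 52 lower, 0 of the 4 genes and 1 target were higher and 4 targets lower, and Mmp7 (−11.40), Mmp9 (−4.48), Plaur (−2.99) and Ctgf (−5.41) reversed.

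With only genes measured in all 6 arrays, 8 genes were higher and 6 lower and 1 target was higher, from fewer genes tested, and the 4 genes gave no value. With a cutoff of 40, and with a missing CT set to 45, 2 of the 4 genes were higher, Ctnnb1 and Cdh1, beside 53 of the 73 genes tested in each. The methods' test called 1 target higher and 0 lower with or without adjustment, beside 27 genes higher and 9 lower with it and 36 higher and 9 lower without it. With each array left out in turn, Wnt5a ranged from −5.96 to −4.68 and Ctnnb1 from 4.45 to 4.97.

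No pairing by replicate number was seen. The deviations of same-numbered arrays had correlations of 0.0760, −0.00339 and −0.237 over 14 assays, and no control array correlated best with its own number. With 3 arrays per group this check cannot exclude that same-numbered cultures were paired. With a replicate block, Wnt5a stayed at −5.46 and Ctnnb1 at 4.71, with 45 genes higher and 13 lower in place of 46 and 13.

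Detection limits these values, because a gene without a CT in a group has no measured level there, and a gene beyond the cutoff on all arrays has none in either.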
